A study of Homo sapiens with 9 samples.

Results

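The 10 genes described here are the vascular endothelial growth factor (VEGF) receptor KDR and the genes of its axis in TCam-2 cells, a human testicular seminoma cell line. They were taken by name from the 63856 genes of the count table, each on 1 row: the receptors KDR, FLT1 and FLT4, the co-receptors NRP1 and NRP2, the ligands VEGFA, VEGFB and VEGFC, the angiopoietin receptor TEK and the receptor phosphatase PTPRB. Of these, 9 were among the 18452 genes tested, and VEGFC was too low. KDR and PTPRB had been selected by the study because they changed at least 2-fold in these same samples when ESX1 was activated, relative to both controls. Their values in those comparisons are therefore given as a description, with no p-value. Where KDR and PTPRB are counted among the called genes of those comparisons, the count is no evidence of a rise.

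Total RNA was sequenced in 9 samples, with 3 biological replicates in each of 3 groups. The cells with the activated ESX1 gene (ESX1) received 3 vectors with gRNAs for the promoter side of ESX1, a homeobox gene, together with PB-TRE-dCas9-VPR, a doxycycline-inducible Cas9 without cutting activity fused to transcriptional activators. The negative control (NC) received the same kind of vector with gRNAs that match nothing specific in the human genome, and whether it also received dCas9-VPR is not given in the sources used here. The wild type (WT) was not modified. WT thus differed from the other groups also by transfection, puromycin selection and doxycycline, and the transfected populations were mixtures in which only a part of the cells carried the green fluorescent marker. Fewer expressing cells and less RNA per cell cannot be told apart in such bulk samples.

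Total counts ranged from 5212804 to 10644408 read pairs per sample, and ESX1 replicate 3 was the least deeply sequenced. Mitochondrial genes took 17.0 to 18.3% of the counts in WT, 14.5 to 15.3% in NC and 19.2 to 19.9% in the activated cells, without overlap between the groups, and the part of this difference in the results was not tested. The activation was visible in every sample. ESX1 itself had 33, 28 and 30 counts in WT, 35, 27 and 34 in NC, and 562, 554 and 170 in the activated cells. Its normalized level, in CPM (counts scaled to library size, after TMM scaling), was 57.0, 55.7 and 31.4 CPM in activated replicates 1, 2 and 3, so replicate 3 was also the least activated.

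VEGF ligands are secreted dimers that bind receptor tyrosine kinases on endothelial cells and drive the growth of blood vessels. KDR (VEGFR-2) is the main signalling receptor for VEGFA, FLT1 (VEGFR-1) binds VEGFA and VEGFB and acts largely as a decoy, and FLT4 (VEGFR-3) is the receptor for VEGFC in lymphatic vessels. NRP1 and NRP2 are co-receptors that VEGF shares with class 3 semaphorins. PTPRB, also called VE-PTP, removes phosphate from TEK (TIE2) and dampens KDR signalling.

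The sequence just upstream of the gene start is shown for KDR and its closest paralog FLT1, because KDR was nearly absent in the controls and not in the activated cells, while FLT1 was low in all groups. Both are RefSeq windows of 250 bases on GRCh38.p14, written 5′ to 3′ on the minus strand of the gene. The KDR window is chr4:55125596-55125845 and the FLT1 window is chr13:28495129-28495378. Capitals mark GC boxes, GGGCGG on either strand.
KDR: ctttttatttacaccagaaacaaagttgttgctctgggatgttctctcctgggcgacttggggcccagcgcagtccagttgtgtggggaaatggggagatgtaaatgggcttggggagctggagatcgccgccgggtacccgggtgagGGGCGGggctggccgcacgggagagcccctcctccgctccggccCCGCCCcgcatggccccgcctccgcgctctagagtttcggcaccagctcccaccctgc
FLT1: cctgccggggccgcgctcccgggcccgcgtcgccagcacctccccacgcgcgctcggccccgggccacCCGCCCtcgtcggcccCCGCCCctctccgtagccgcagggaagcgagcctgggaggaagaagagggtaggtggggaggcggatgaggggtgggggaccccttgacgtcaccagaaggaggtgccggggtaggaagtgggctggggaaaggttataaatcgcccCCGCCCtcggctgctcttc

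The KDR window was 65.2% G and C and held 2 GC boxes, and the FLT1 window was 73.2% G and C and held 3. A TATA box, spelled TATAAA, was present in FLT1 and not in KDR. Windows were at hand for 6 of the 10 genes, and GC boxes were found in KDR, FLT1, VEGFB, VEGFC and NRP2 but not in either of the windows of TEK, which were 46.4% G and C. GC boxes occurred in 42.6% of 35116 promoter windows of the same length and TATA boxes in 10.7%. The homeodomain sequence TAATTA was in none of the members' windows and in 4.35% of all windows. The ETS sequence CCGGAA was likewise in none of the members' windows and in 14.5% of all windows. The shorter ETS core GGAA was not counted, and it does occur in both windows printed above. These are matches of letters, searched on both strands, and say nothing about binding.

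KDR lies on the minus strand of chromosome 4 (GRCh38, 55078477 to 55125589), with exons that overlap no other listed gene. It was almost silent in WT, with 6, 0 and 1 counts, and low in NC, with 8, 5 and 14 counts. The activated cells had 89, 102 and 27 counts. On the normalized scale this was 0.655, 0 and 0.104 CPM in WT, 0.829, 0.536 and 1.42 CPM in NC, and 9.02, 10.3 and 4.99 CPM in the activated cells. All activated samples lay above all controls. ESX1 replicate 3, the one with the least ESX1 and the lowest depth, was the lowest of them. PTPRB did not share this order (14.9, 11.0 and 11.6 CPM in activated replicates 1 to 3), and a relation to the level of ESX1 was not tested. The fitted difference was 28.8-fold against WT (log2 fold change 4.85, standard error 0.60) and 8.67-fold against NC (log2 fold change 3.12, standard error 0.49). The fold against WT rests on 7 counts in 3 libraries, and its log2 value was 4.40 to 6.78 when 1 library was left out, the highest without WT replicate 1. KDR passed the filter on low counts through the activated group.

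Between the controls, KDR was 1.73 higher in NC on the log2 scale (standard error 0.73, edgeR adjusted p = 0.114), and the 2 groups overlapped. Without WT replicate 1, which held 6 of the 7 WT counts, this difference became 3.66 and passed the threshold, but it then set 27 counts in NC against 1 count in 2 WT libraries, both too low to pass the filter by themselves, and it is not read as a change.

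FLT1 and FLT4 did not follow KDR. FLT1 had between 2 and 19 counts in every sample, and its mean was 0.781 ± 0.658 CPM in WT, 1.15 ± 0.289 in NC and 1.34 ± 0.562 in the activated cells (SD, n = 3). The 3 groups overlapped, and the log2 differences of 0.73 against WT and 0.23 against NC had standard errors of about 0.6, so a change of 2-fold in FLT1 was not detectable at this depth. FLT4 was the most abundant VEGF receptor, with 245, 222 and 338 counts in WT, 294, 213 and 290 in NC, and 219, 176 and 106 in the activated cells. On the normalized scale the activated samples, at 22.2, 17.7 and 19.6 CPM, were all below WT (26.7, 32.4 and 35.3 CPM) and just below the lowest NC sample (30.5, 22.8 and 29.5 CPM). The log2 difference was -0.66 against WT (standard error 0.17, edgeR adjusted p = 0.0070), which is short of the 2-fold minimum, and -0.48 against NC (adjusted p = 0.141).

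Levels of different genes were compared as CPM per kilobase of exon. KDR made up 3.22, 0 and 0.412% of the summed level of the 3 receptors in WT replicates 1 to 3, and 3.64, 3.08 and 6.22% in NC. In the activated cells it made up 35.1, 44.3 and 25.6%. The share of FLT4 was 93.0 to 99.4% in WT, 91.1 to 94.5% in NC and 54.0 to 71.1% in the activated cells. FLT4 thus stayed the leading receptor transcript in every sample. Because KDR was chosen for its rise, these shares are a description.

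**Figure D1:**
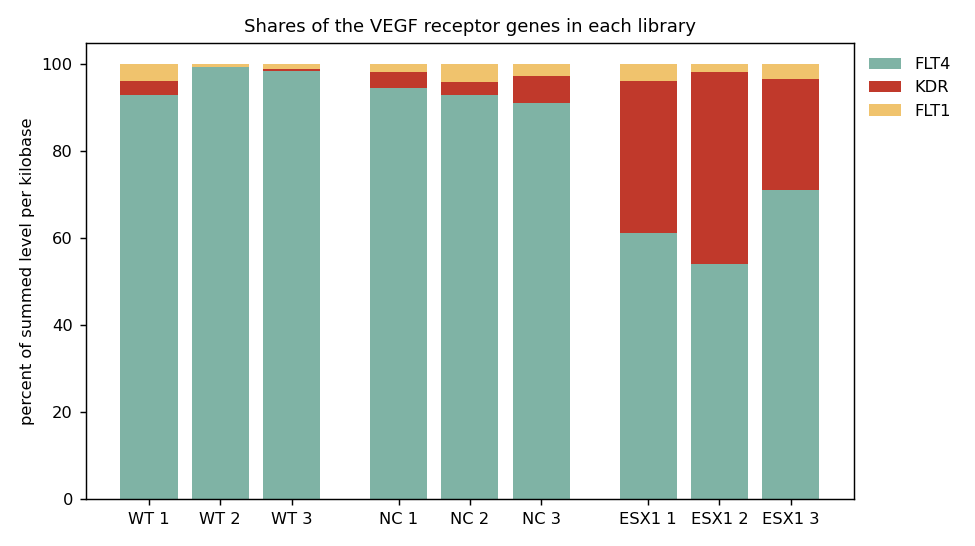
Share of FLT4, KDR and FLT1 in the summed level per kilobase of the 3 VEGF receptor genes (vertical axis, percent) in each of the 9 libraries. KDR takes 25.6 to 44.3% in the activated cells and at most 6.22% in any control library.

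Relative to WT, the activated samples were higher in NRP2 and lower in NRP1. NRP2 had 10, 4 and 5 counts in WT, 10, 2 and 6 in NC, and 38, 20 and 11 in the activated cells. This was 1.09, 0.583 and 0.522 CPM in WT, 1.04, 0.214 and 0.611 CPM in NC, and 3.85, 2.01 and 2.03 CPM in the activated cells, whose samples all lay above the controls. The fitted log2 difference of NRP2 was 1.83 against WT (standard error 0.56, edgeR adjusted p = 0.0217) and 2.07 against NC (standard error 0.57, adjusted p = 0.0472). The call against NC was marginal. It held without WT replicate 1 or WT replicate 3 and was lost without any other library, with an adjusted p of 0.0559 to 0.217. The call against WT was lost without WT replicate 2 (log2 difference 1.70), WT replicate 3 (1.61) or ESX1 replicate 1 (1.43). NRP2 too passed the filter on low counts through the activated group, where it was high, so its tests after that filter are no independent evidence of a rise. In a fit of every gene with at least 1 count, where no gene had to be high in a group to enter, its log2 difference was 1.84 against WT (adjusted p = 0.0150) and 2.07 against NC (adjusted p = 0.0184). That edgeR fit used the same counts and also gave VEGFA a smaller adjusted p against WT (0.000827, beside 0.0433 in the main fit). Its p-values are therefore not comparable with those of the main fit and are no separate evidence.

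NRP1 had 35, 39 and 72 counts in WT, 61, 43 and 33 in NC, and 20, 28 and 12 in the activated cells. Its level was 3.82, 5.68 and 7.52 CPM in WT, 6.32, 4.61 and 3.36 CPM in NC, and 2.03, 2.82 and 2.22 CPM in the activated cells. The activated samples lay below all controls, while WT and NC overlapped. NRP1 fell against WT by 1.26 on the log2 scale (standard error 0.35, edgeR adjusted p = 0.0113), and without WT replicate 3 this was -0.996 with an adjusted p of 0.0666. Against NC the log2 difference was -1.004 (standard error 0.35, adjusted p = 0.128). Per kilobase, NRP2 made up 19.2, 7.84 and 5.44% of the 2 neuropilins in WT, 11.97, 3.71 and 13.1% in NC, and 61.2, 37.2 and 43.2% in the activated cells.

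Among the ligands, VEGFA encodes the factor that KDR binds. It had 31, 16 and 97 counts in WT, 118, 97 and 84 in NC, and 134, 112 and 46 in the activated cells. The normalized levels were 3.38, 2.33 and 10.1 CPM in WT, 12.2, 10.4 and 8.55 CPM in NC, and 13.6, 11.3 and 8.50 CPM in the activated cells. WT replicate 3 stood with the transfected cells and apart from the other WT samples. VEGFA rose against WT by 1.05 on the log2 scale (standard error 0.37, edgeR adjusted p = 0.0433), and the difference from NC was 0.11 (standard error 0.35, adjusted p = 0.927). NC was 0.94 above WT (adjusted p = 0.0929), and without WT replicate 3 this became 1.83 with an adjusted p of 0.000973. Without WT replicate 3 the difference of the activated cells from WT was 1.94 (adjusted p = 0.000204). The call against WT was lost without WT replicate 1 (0.79), WT replicate 2 (0.72), NC replicate 2 (1.07, adjusted p = 0.0543), ESX1 replicate 1 (0.88) or ESX1 replicate 2 (1.04, adjusted p = 0.0733), and in a fit of only these 2 groups (adjusted p = 0.0658).

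VEGFB, a ligand of FLT1, ranged from 4.96 to 9.72 CPM in WT, from 9.86 to 11.1 CPM in NC and from 6.47 to 12.6 CPM in the activated cells. No difference passed the threshold, with log2 values of 0.28 against WT (adjusted p = 0.470) and -0.19 against NC (adjusted p = 0.804). VEGFC, the ligand of FLT4, had between 2 and 7 counts in every sample and was not tested. Per kilobase, VEGFB made up 83.7 to 93.2% of the summed level of the 3 ligands in any sample. This share rests on the exon length used, 1545 bases for VEGFB and 14431 for VEGFA. Before division by length, the means in WT, NC and the activated cells were 7.61, 10.6 and 9.20 CPM for VEGFB. For VEGFA they were 5.28, 10.4 and 11.1 CPM.

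PTPRB lies on the minus strand of chromosome 12 (GRCh38, 70515866 to 70637440). It had 17, 3 and 4 counts in WT, 29, 26 and 53 in NC, and 147, 109 and 63 in the activated cells. This was 1.86, 0.437 and 0.418 CPM in WT, 3.01, 2.79 and 5.39 CPM in NC, and 14.9, 11.0 and 11.6 CPM in the activated cells. The 3 groups formed 3 steps that did not overlap. The fitted difference was 13.3-fold against WT (log2 fold change 3.73, standard error 0.43, and 4.82 without WT replicate 1) and 3.35-fold against NC (log2 fold change 1.74, standard error 0.36). NC was already 3.97-fold above WT (log2 fold change 1.99, standard error 0.46, edgeR adjusted p = 0.00641), and without WT replicate 1, which held 17 of the 24 WT counts, this was 3.09. By limma on the authors' log2 values, the difference between the controls was 0.93 (adjusted p = 0.0135), under the fold minimum. Reads were counted without strand, and 8.97% of the exon bases of PTPRB also lie in exons of 2 genes on the plus strand. Those genes, RP11-588H23.3 and RP11-785D18.3, had 33 and 0 counts over all samples, against 451 for PTPRB.

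TEK, whose product PTPRB dephosphorylates, went the other way. It had 252, 169 and 272 counts in WT, 221, 199 and 190 in NC, and 128, 185 and 69 in the activated cells. Its level was 27.5, 24.6 and 28.4 CPM in WT, 22.9, 21.3 and 19.3 CPM in NC, and 13.0, 18.6 and 12.7 CPM in the activated cells. The groups did not overlap, although activated replicate 2 lay just below the lowest NC sample. The log2 difference was -0.85 against WT (standard error 0.18, edgeR adjusted p = 0.00164), short of 2-fold, -0.51 against NC (adjusted p = 0.133) and -0.34 for NC against WT (adjusted p = 0.184). Without ESX1 replicate 2 the difference from WT was -1.07 and passed the threshold.

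Counted together, 4 of the 9 tested genes were higher in the activated cells than in WT (KDR, VEGFA, NRP2 and PTPRB) and 1 was lower (NRP1), at an adjusted p below 0.05 and at least 2-fold. Over all 18452 genes the shares were 6.78% higher and 4.77% lower. Against NC, 3 were higher (KDR, NRP2 and PTPRB) and 0 lower by edgeR and by DESeq2, where 1.08% of all genes were higher and 0.699% lower. PTPRB did not reach the threshold against NC without NC replicate 1 (log2 fold change 1.61) or NC replicate 2 (1.57). KDR and PTPRB were chosen on these contrasts, and NRP2 was tested only because it was high in the activated cells, so none of these 3 supports either count, and nothing is read from the counts against the background. The genes lower than NC at an unadjusted p below 0.05 were 3, FLT4, NRP1 and TEK. The share of all genes at that unadjusted threshold is not given here. Nothing is therefore read from this count or from the counts at an unadjusted p further below. By limma on the authors' log2 values, VEGFA (0.87), NRP1 (-0.68) and NRP2 (0.71) came under the fold minimum against WT, and NRP2 (0.79) also against NC. The limma adjusted p-values of VEGFA and NRP1 against WT were 0.0321 and 0.0146, so only the fold minimum was missed. Between the controls, PTPRB was the 1 gene called, and it was higher in NC (0 lower by edgeR, by DESeq2 or at an unadjusted p below 0.05), where 3.12% of all genes were higher than in WT and 2.15% lower. As a description, the median log2 difference of the 9 genes was 0.73 against WT and 0.11 against NC, beside 0.0066 and 0.0004 over all tested genes. Without KDR and PTPRB, the median of the other 7 was 0.28 against WT and -0.19 against NC, so the direction against NC turned. The ESX1 comparisons share their activated samples, and each shares a control with the comparison of NC and WT.

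**Figure D2:**
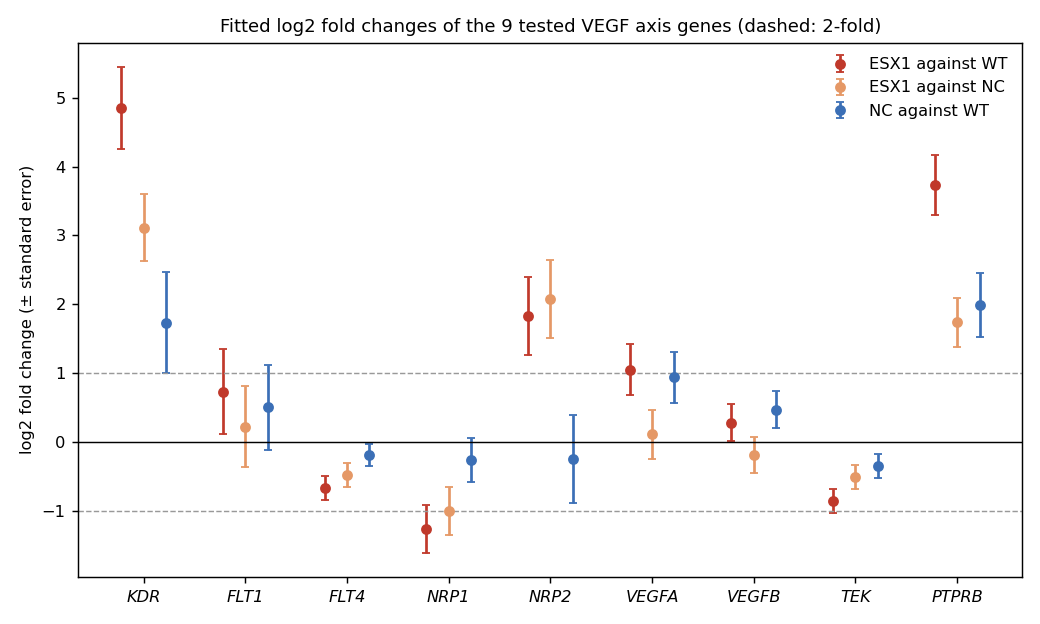
Fitted log2 fold change (vertical axis, points, with standard errors as bars) of the 9 tested genes in ESX1 against WT, ESX1 against NC and NC against WT, with dashed lines at 2-fold. KDR, NRP2 and PTPRB lie above the upper line in both ESX1 comparisons, and PTPRB also in NC against WT.

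The order of the levels per kilobase changed mostly through KDR and PTPRB. This order depends on the exon length counted for each gene, as described for VEGFA and VEGFB. In WT it ran from TEK (5.59 CPM per kilobase), VEGFB (4.92) and FLT4 (3.56), which did not differ beyond the sum of their SDs from neighbour to neighbour, down through NRP1, VEGFA and VEGFC to PTPRB, FLT1, NRP2 and KDR (0.0405), which likewise did not differ. In NC the order was VEGFB, TEK, FLT4 and VEGFA, each apart from the next, and then NRP1, VEGFC, PTPRB, KDR, FLT1 and NRP2, none of which was apart from its neighbour. In the activated cells KDR (1.29 CPM per kilobase) was in place 4 behind VEGFB (5.95), TEK (3.08) and FLT4 (2.24). It was apart from FLT4, but not from PTPRB (0.860), which followed it, nor PTPRB from VEGFA. NRP1, VEGFC, NRP2 and FLT1 closed the list within their spread of each other.

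The lists of genes around this axis were chosen with earlier results of these data known, so nothing is read from their counts. Over all tested genes, 6.78% were higher and 4.77% lower against WT, and 1.08% and 0.699% against NC. In NC against WT these shares were 3.12% and 2.15%. The class 3 semaphorins and their plexin receptors, which use the neuropilins, had 2 of 11 tested genes higher in the activated cells than in WT and 1 higher than in NC, with 0 lower. That gene was SEMA3C, a secreted guidance factor, at 13.9, 8.60 and 5.64 CPM in WT, 5.597, 8.47 and 10.3 CPM in NC, and 31.2, 31.6 and 37.5 CPM in the activated cells. SEMA3C rose against WT by 1.83 on the log2 scale (edgeR adjusted p = 7.4e-05) and by 2.04 against NC (adjusted p = 0.000218), and the log2 difference of NC from WT was -0.21 (adjusted p = 0.656). SEMA3G had 4, 0 and 4 counts in WT, 24, 8 and 11 in NC, and 54, 57 and 16 in the activated cells. SEMA3G stood 3.90 above WT in the activated cells, while NC was 2.23 above WT (edgeR adjusted p = 0.0288). The call in NC was lost without WT replicate 2, WT replicate 3 or NC replicate 1. SEMA3G too passed the filter on low counts only with the activated samples, and WT held 8 counts in 3 libraries. Its values are therefore a description and no evidence of a rise.

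Of 10 inhibitors of VEGF receptor signalling, 2 were higher and 0 lower against WT, and 2 were higher and 1 lower against NC. Over all tested genes these shares were 6.78% and 4.77% against WT, and 1.08% and 0.699% against NC. TIMP3, a metalloprotease inhibitor that blocks VEGFA from binding KDR, had 1.75, 1.31 and 1.15 CPM in WT, 6.01, 3.97 and 4.27 CPM in NC, and 31.3, 25.7 and 20.1 CPM in the activated cells, and it was another gene the study selected on these samples. Thrombospondin 1 (THBS1), an inhibitor of angiogenesis, had 22.7, 18.5 and 10.03 CPM in WT, 48.0, 37.0 and 50.9 CPM in NC, and 115, 79.4 and 209 CPM in the activated cells. It rose against WT by 2.97 on the log2 scale (edgeR adjusted p = 2.05e-06), by 1.56 against NC (adjusted p = 0.00329) and by 1.41 in NC against WT (adjusted p = 0.00393). Both inhibitors were thus higher in NC than in WT as well (TIMP3 by 1.75, adjusted p = 0.000893), in the 3 steps also seen for PTPRB. SPRY4, a feedback inhibitor of receptor tyrosine kinase signalling, averaged 127.5 CPM in WT, 239 in NC and 111 in the activated cells. It fell by 1.10 against NC (adjusted p = 0.00105) and differed from WT by -0.19 (adjusted p = 0.432). Without ESX1 replicate 3 its difference from NC was -0.98, under the fold minimum.

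Among 13 transcription factors of endothelial cells, 7 were tested, of which 4 were higher in the activated cells than in WT, and 2 were higher and 1 lower than in NC. Over all tested genes, 6.78% were higher than in WT, and 1.08% higher and 0.699% lower than in NC. With 7 genes from a list chosen with earlier results known, nothing is read from these counts. SOX18, a factor of vascular and lymphatic development, had 1.86, 2.04 and 3.55 CPM in WT, 1.87, 2.57 and 1.73 CPM in NC, and 16.2, 3.92 and 6.65 CPM in the activated cells. It rose against WT by 1.84 on the log2 scale (edgeR adjusted p = 0.00468) and by 2.13 against NC (adjusted p = 0.00944). Without ESX1 replicate 1 these values were 1.04 and 1.33, past the threshold in neither case, and the call against NC was also lost without NC replicate 1 (2.07) or NC replicate 3 (2.03). ETS1, which regulates many endothelial genes, averaged 4.07 CPM in WT, 3.76 in NC and 9.68 in the activated cells, and rose by 1.28 against WT (adjusted p = 0.00423) and by 1.38 against NC (adjusted p = 0.0122). It was not called against WT without ESX1 replicate 1 (0.97), nor against NC without ESX1 replicate 1 (1.07) or NC replicate 3 (1.17). LMO2, a partner of the TAL1 and GATA factors, fell by 1.07 against NC (adjusted p = 0.00912), and without NC replicate 3 or ESX1 replicate 3 the difference was -0.97 and -0.98. GATA2 and HHEX were higher than WT in both the activated cells (log2 differences 1.84 and 2.10) and NC (1.74 and 1.91). The GATA2 call in the activated cells was lost without WT replicate 2 or ESX1 replicate 3 and the HHEX call without WT replicate 3. In NC the GATA2 call held only in 4 of the 9 fits that left out 1 library, with calls lost without WT replicate 2, WT replicate 3 or any NC replicate. HHEX lost its NC call without WT replicate 1, WT replicate 3, NC replicate 1 or NC replicate 3. Without WT replicate 1, GATA2 stood 3.34 above WT in the activated cells and 3.24 in NC, and without WT replicate 3 its difference in the activated cells was 1.26. Without WT replicate 2, HHEX stood 3.68 and 3.49 above WT. DESeq2 called GATA2 in neither comparison (adjusted p = 0.0957 and 0.162). By limma on the authors' log2 values SOX18 was not called against NC (adjusted p = 0.0537), and ETS1 (0.81 against WT, 0.88 against NC), LMO2 (-0.82 against NC) and HHEX (0.91 in NC against WT) came under the fold minimum, as did SEMA3G (0.73) and TIMP3 (0.87) in NC against WT.

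**Figure D3:**
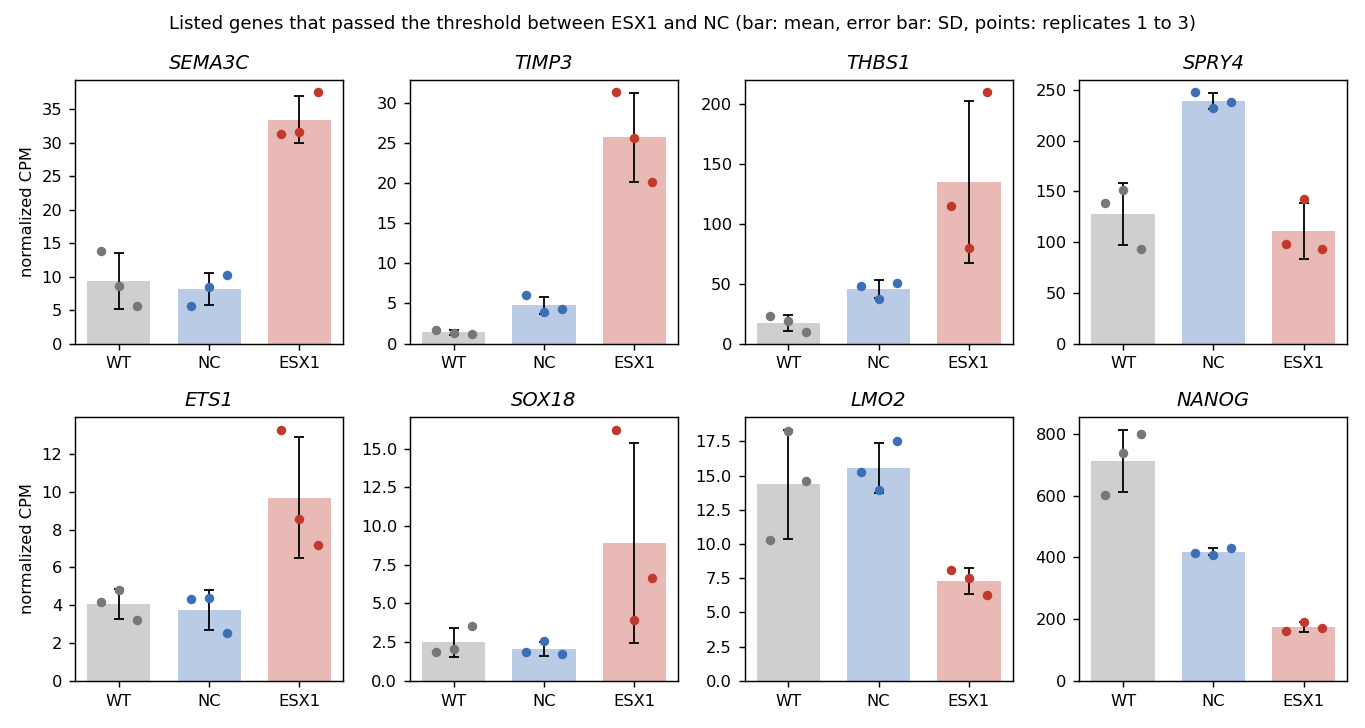
Normalized CPM (vertical axes, linear from 0) of the 8 listed genes that passed the threshold in ESX1 against NC, with points for replicates 1 to 3, bars for the mean and error bars for the SD. SEMA3C, ETS1 and SOX18 were alike in WT and NC means and higher in the activated cells, TIMP3 and THBS1 rose in 3 steps, and SPRY4, LMO2 and NANOG were lower in the activated cells than in NC.

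The remaining lists were smaller or held fewer calls. For comparison, 6.78% of all tested genes were higher and 4.77% lower against WT, and 1.08% and 0.699% against NC. In NC against WT the shares were 3.12% and 2.15%, and nothing is read from the counts of these lists. Of 22 tested signalling proteins downstream of the VEGF receptors, 1 was called in any comparison. That was SPHK1, a lipid kinase, which rose against WT by 2.25 on the log2 scale (edgeR adjusted p = 0.000492) and was 1.24 above NC (adjusted p = 0.0683). Without ESX1 replicate 1 its rise against WT was 1.61. Of the other VEGF and angiopoietin ligands and TIE1, 3 of 6 were tested and 0 passed in any comparison by edgeR or DESeq2. At an unadjusted p below 0.05, 0 differed in either ESX1 comparison, and 2 were higher and 1 lower in NC than in WT. Of 8 genes of hypoxia sensing, upstream of VEGFA, EPAS1 rose by 1.15 against WT (adjusted p = 0.00046) and was 0.49 above NC (adjusted p = 0.218). That call was lost without WT replicate 2 or ESX1 replicate 1, where the value was 0.99 in both cases. Among 3 tested phosphatases related to PTPRB, PTPRH rose by 3.91 against WT (adjusted p = 4.93e-06) and by 2.80 in NC against WT (adjusted p = 0.000547), and was 1.11 above NC in the activated cells (adjusted p = 0.0699). The limma value of PTPRH in NC against WT was 0.99, just under the fold minimum. Of 3 tested receptor tyrosine kinases of related structure, 2 were called against WT. CSF1R rose by 1.97 against WT, a call lost without WT replicate 2 (1.54) or ESX1 replicate 1 (1.30) and by limma on the authors' log2 values (0.84), and KIT fell.

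KIT is the stem cell factor receptor of germ cells and seminoma, and its gene lies next to KDR on chromosome 4. It had 468, 529 and 1013 counts in WT, 207, 173 and 200 in NC, and 126, 119 and 69 in the activated cells. KIT fell against WT by 2.64 on the log2 scale (edgeR adjusted p = 1.77e-07) and by 1.95 in NC against WT (adjusted p = 1.15e-05), and differed from NC by -0.69 in the activated cells (adjusted p = 0.0874). Of the 25 genes listed within 500 kb of KDR, 6 were tested, and none but KIT passed in any comparison by edgeR or DESeq2. The other tested neighbours were SRD5A3, SRD5A3-AS1, TMEM165, CLOCK and NMU, of which 0 were higher at an unadjusted p below 0.05 in any comparison and 1, 1 and 2 were lower in ESX1 against WT, ESX1 against NC and NC against WT. Around PTPRB, 5 of 16 listed genes were tested (LINC01481, CNOT2, RP11-398J13.1, KCNMB4 and CTD-2021H9.3), and 0 passed in any comparison by edgeR or DESeq2. At an unadjusted p below 0.05, 3 were lower in ESX1 against WT, 0 in ESX1 against NC and 2 in NC against WT, and 0 were higher. The nearest gene upstream, PTPRR, had 8, 15 and 21 counts summed over the WT, NC and activated samples and was too low to test. No tested neighbour at either locus was called higher. Among all tested genes, 6.78% were higher and 4.77% lower in ESX1 against WT, and 1.08% and 0.699% in ESX1 against NC. In NC against WT these shares were 3.12% and 2.15%. With 6 and 5 tested neighbours, nothing about the loci is read from these counts.

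Markers of 2 cell types were followed beside these results. Of 13 endothelial markers, 5 were tested, and VWF and CD34 were higher in the activated cells than in WT, while 0 differed from NC by edgeR or DESeq2 (2 were higher at an unadjusted p below 0.05). Over all tested genes, 6.78% were higher than in WT and 1.08% higher than in NC. VWF averaged 12.8 CPM in WT, 24.6 in NC and 34.8 in the activated cells, and CD34 averaged 2.38, 21.0 and 20.5 CPM. The summed level of the 13 markers was 37.5 to 52.5 CPM in WT, 63.9 to 78.4 CPM in NC and 74.4 to 91.5 CPM in the activated cells. The 8 markers too low to test had few counts, at most 26 in a group (CDH5 in WT). Summed over the samples of WT, NC and the activated cells, ECSCR had 0 counts in every group, PECAM1 had 0, 2 and 9, CLDN5 had 0, 3 and 7, CDH5 had 26, 3 and 13, ROBO4 had 1, 0 and 12, ENG had 6, 10 and 20, EMCN had 2, 1 and 0, and PLVAP had 3, 0 and 1. Of the tested markers, ESAM had 46, 43 and 116 counts, EGFL7 had 294, 305 and 205, and MMRN2 had 339, 428 and 320. All 8 seminoma markers were tested. Against WT, 5 were lower in the activated cells (POU5F1, NANOG, TFAP2C, PRDM1 and KIT) and 0 higher, and against NC 1 was lower (NANOG). The shares lower over all tested genes were 4.77% against WT and 0.699% against NC. POU5F1 (log2 difference -0.77, edgeR adjusted p = 0.00291), TFAP2C (-0.71, 0.000315) and PRDM1 (-0.75, 0.00329) were also lower than NC, short of the 2-fold minimum. KIT, PRAME, SOX17 and TFAP2A had adjusted p above 0.05 against NC. NANOG, which the study had selected on these samples, averaged 712 CPM in WT, 418 in NC and 174 in the activated cells. Summed, the 8 seminoma markers had 3265 to 3997 CPM in WT, 2551 to 2744 CPM in NC and 1450 to 1787 CPM in the activated cells. Bulk samples cannot show whether the cells with KDR held these transcripts. The part of these marker shifts in the values of KDR, PTPRB and NRP2 was not tested.

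The tested genes whose log2 CPM followed KDR most closely over the 9 samples were TMTC2 (Pearson r = 0.988), VPS8 (0.982), SP6 (0.979), PLA2G4C (0.979) and HRNR (0.976). TMTC2 averaged 0.529 CPM in WT, 1.18 in NC and 6.47 in the activated cells, close to the profile of KDR, whereas VPS8 moved only from 65.0 to 70.0 and 82.5 CPM. SP6, a zinc finger transcription factor, averaged 1.41, 3.93 and 12.7 CPM. Among the members, PTPRB was in place 11 of 18451 (r = 0.963), NRP2 followed at 0.819, and NRP1 (-0.880), FLT4 (-0.847) and TEK (-0.825) ran against KDR. The points are the same 9 libraries in 3 groups, so any gene that separates the groups scores high, and the values are a description.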

How the data were processed

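RNA-seq of 9 TCam-2 samples was analysed, 3 each of WT, NC and ESX1, grouped by the sample labels. The authors aligned read pairs with HISAT2 2.0.5 to GRCh38 and deposited raw counts per gene, made with featureCounts without the strand option although the library kit was stranded. The header of the count table names featureCounts 1.5.2 and GENCODE 26, whereas the processing notes name featureCounts 1.6.5. The authors also deposited log2 values normalized with DESeq2, and the transformation is not given in the sources used here. The lowest of these log2 values was 4.18.

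The main test was edgeR 4.0.16 under R 4.3.3 (filterByExpr, TMM, 3 group means over 9 samples, glmQLFit and glmQLFTest). Adjusted p-values are Benjamini-Hochberg values over 18452 genes, and a call needs an adjusted p below 0.05 and at least a 2-fold change. A standard error is the log2 fold change divided by the square root of F. CPM are scaled with TMM, and log2 CPM used a prior count of 2. On simulated counts of 18452 genes for ESX1 against NC, 95% of 200 genes changed 4-fold were recovered with 2 false calls. Total counts were 5212804 to 10644408, and log2 CPM of replicates correlated at 0.967 to 0.980 across genes. Replicates are biological per the study's methods, and no further origin is stated.

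Named genes were the 10 members, ESX1, genes of the lists called in any comparison, the 5 genes most correlated with KDR, and tested genes within 500 kb of KDR or PTPRB. Further marker genes are given for the marker check. The members and lists were chosen with earlier results of these data known. Alternatives were DESeq2 1.42.0, other scalings and filters, a fit of the 2 groups compared, the replicate number as a block, limma 3.58.1 on the authors' log2 values, no fold minimum and leaving out each library. Promoter windows are from RefSeq (GRCh38.p14). No coordinate was carried between builds.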

Additional observations from a re-analysis of the deposited data

How the results depend on the processing

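Of the 9 tested members, 5 were called in ESX1 against WT, 3 in ESX1 against NC and 1 in NC against WT, and DESeq2, RLE and upper-quartile scaling, no filter and the fit of 2 groups left each count within 1.5 times. Only genes with at least 10 counts in every sample gave 2, 0 and 0 members. This was because fewer genes were tested and KDR, NRP2 and PTPRB were not among them. Limma on the authors' log2 values gave 2 and 0 in ESX1 against WT and NC against WT. Those values have a floor of 4.18, the value of KDR in WT replicate 2 with 0 counts. On that scale KDR was 2.14 above WT, beside 4.85 by edgeR, so the fold minimum is not the same threshold on both scales. The part of the floor in the lower limma counts was not tested. Over all genes the calls were 2131, 328 and 973, of which the 10-count filter left 1192, 200 and 563 and limma 935, 158 and 332, and without a fold minimum they were 5306, 784 and 3158, of which more were lower than higher (2382 higher and 2924 lower, 346 and 438, and 1259 and 1899). Leaving out 1 library gave 3 to 5, 1 to 3 and 1 to 2 members, and 209 (without NC replicate 3) to 434 genes in ESX1 against NC. The lowest member counts came without WT replicate 2, WT replicate 3 or ESX1 replicate 1 (3), and without NC replicate 1 or NC replicate 2 (1), and the highest in NC against WT without WT replicate 1 or WT replicate 3 (2). The log2 differences that changed sign were small, with ranges over the libraries left out of -0.017 to 0.48 for VEGFB in ESX1 against WT, -0.18 to 0.51 for FLT1, -0.057 to 0.27 for VEGFA and -0.48 to 0.0012 for VEGFB in ESX1 against NC, and -0.50 to 0.012 for NRP1 and -0.79 to 0.17 for NRP2 in NC against WT. Upper-quartile scaling moved the median of all genes in ESX1 against WT from 0.0066 to 0.11 and the split of higher and lower calls in NC against WT from 576 and 397 to 710 and 311.

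The replicate numbers of the titles did not pair the samples (correlations of same-numbered deviations from -0.03 to 0.19, with 3, 4 and 1 of 6 samples closest to their own number). With that number as a replicate block in edgeR there were 5, 3 and 1 members and 2109, 358 and 1003 genes.

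KDR, NRP2 and FLT1 rest on few counts in the controls, so folds against WT are imprecise at this depth.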
